A study of Mus musculus with 9 samples.

Results

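The imprinted and fetal growth genes described here are Igf2, H19, Meg3, Rian, Mest, Peg3, Dlk1, Cdkn1c, Igf2bp1 and Igf2bp3. They were taken by name from the gene rows of 9 single-nucleus RNA libraries of mouse heart ventricles. Of the 10 named genes 9 had a row, among 37811 genes outside the mitochondrial genome in the tables, and Dlk1 is not analysed here. The libraries came from C57BL6/J mice in 3 groups of 3: ERRalphaKO/ERRgammaKO hearts at postnatal 9 to 10 days (KO P10), ERRalphaHet/ERRgammaWT hearts of the same stage (control P10), and ERRalphaHet/ERRgammaWT hearts at postnatal 6 days (control P6). The controls of both ages were thus heterozygous for ERRalpha, not wild type. The labels give no Cre driver for either knockout, do not say whether a library is 1 heart or a pool, record the sex as not determined, and state only that ventricles were used fresh or flash frozen. ERRalpha and ERRgamma are nuclear receptors that drive mitochondrial and oxidative genes in heart muscle.

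Imprinted genes are expressed from 1 parental allele, and many of them act on growth before and shortly after birth. Igf2, read from the paternal allele, encodes a growth factor of the insulin family, and its maternally expressed neighbour H19 is a noncoding RNA. Meg3 and Rian are maternally expressed noncoding RNAs of the Dlk1-Dio3 region, whereas Mest (a hydrolase-like protein of the endoplasmic reticulum) and Peg3 (a zinc-finger protein) are paternally expressed. Cdkn1c encodes the cyclin-dependent kinase inhibitor p57, which restrains cell division, and is maternally expressed. Igf2bp1 and Igf2bp3 are not imprinted. They encode fetal RNA-binding proteins that bind Igf2 messenger RNA among others, and their own messages are known targets of the let-7 microRNA family.

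By the GENCODE vM21 annotation of GRCm38, Igf2 lies on the minus strand at chr7:142650766-142666816 and H19 on the same strand at chr7:142575529-142578143. Cdkn1c lies in the same imprinted region at chr7:143458339-143461050 on the minus strand. Meg3 lies on the plus strand at chr12:109541001-109571726 and Rian downstream of it at chr12:109603940-109661716. Mest occupies chr6:30723547-30748465 on the plus strand, and its end overlaps Copg2 on the other strand. Peg3 lies at chr7:6703892-6730431, Igf2bp1 at chr11:95957163-96005940 and Igf2bp3 at chr6:49085223-49214957, all on the minus strand, and Igf2bp3 overlaps Malsu1 on the opposite strand. Whether the authors' counting used strand is not given in the sources used here, so reads of an overlapping pair cannot be told apart.

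Several of these genes also carry microRNAs within them, which identify the loci. The mature sequences below are RefSeq entries on GRCm38.p6, with the seed (bases 2 to 8) in capitals. Libraries primed on poly(A), as these were, do not measure mature microRNAs.
miR-675-5p, in H19: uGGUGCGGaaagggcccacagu
miR-675-3p, in H19: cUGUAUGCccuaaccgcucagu
miR-483-5p, in Igf2: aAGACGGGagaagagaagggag
miR-483-3p, in Igf2: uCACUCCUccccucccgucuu
miR-335-5p, in Mest: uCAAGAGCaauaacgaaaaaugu
miR-770-5p, in Meg3: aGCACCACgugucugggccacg
let-7a-5p, hosted by none of them: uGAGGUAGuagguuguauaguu
The 15 mature microRNAs looked up matched 5 of the genes (H19, Igf2, Mest, Meg3 and Rian), and no seed was shared within this set. By the annotation Igf2bp1 also holds a microRNA gene, Mir3063, which was not looked up.

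The let-7 seed pairs with CTACCTC, which was searched on the transcript strand of the longest annotated 3' UTR of each gene. Igf2bp1, with a 3' UTR of 6337 bases, held 4 copies, and Igf2bp3, with 2119 bases, held 1. The motif is in capitals in each stretch, all on the minus strand of GRCm38.
Igf2bp1, chr11:95961778-95961800: gctgtgcgaagtaaaCTACCTCa
Igf2bp1, chr11:95959357-95959379: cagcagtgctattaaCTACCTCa
Igf2bp1, chr11:95958763-95958785: gtataaatggatgaaCTACCTCa
Igf2bp1, chr11:95958140-95958162: acttttggttttaatCTACCTCt
Igf2bp3, chr6:49086787-49086809: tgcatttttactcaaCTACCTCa
The motif occurred in 1895 of 21007 genes with a 3' UTR (9.02%). Among the 376 genes whose 3' UTR is at least as long as that of Igf2bp1, 45.7% held it and 0.798% held as many copies. Among the 4979 genes at least as long as Igf2bp3, 20.5% held it.

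Promoters (250 bases before to 50 after an annotated start, RefSeq on GRCm38.p6) were at hand for 7 of the genes. AAGGTCA, the core of the element that estrogen-related receptors bind, was searched on both strands. It was in 1 of 13 promoters of the set and in 1550 of 32851 promoters in all (4.72%). The single match, TGACCTT on the strand shown, was in a Meg3 promoter inside the annotated gene, at chr12:109545148-109545447 on the plus strand.
Meg3 promoter: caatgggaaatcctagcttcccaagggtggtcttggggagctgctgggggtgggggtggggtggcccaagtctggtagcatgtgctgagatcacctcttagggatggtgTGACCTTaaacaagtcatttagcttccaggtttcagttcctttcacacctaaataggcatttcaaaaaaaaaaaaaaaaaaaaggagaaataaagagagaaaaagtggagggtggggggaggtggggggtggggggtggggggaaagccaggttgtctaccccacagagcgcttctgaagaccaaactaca
A Mest promoter, chr6:30737800-30738099 on the plus strand, is shown because Mest differed between the KO and control groups, and imprinted promoters are known for methylation of CpG pairs. It holds 17 of them, in capitals, against a median of 7 per promoter, and 68.6% of all promoters hold fewer. The Mest promoter at chr6:30737803-30738102, which overlaps it, also holds 17. A further Mest promoter, chr6:30733256-30733555, holds 8, and 51.35% of all promoters hold fewer. The promoter shown was picked among those of Mest for its high count.
Mest promoter: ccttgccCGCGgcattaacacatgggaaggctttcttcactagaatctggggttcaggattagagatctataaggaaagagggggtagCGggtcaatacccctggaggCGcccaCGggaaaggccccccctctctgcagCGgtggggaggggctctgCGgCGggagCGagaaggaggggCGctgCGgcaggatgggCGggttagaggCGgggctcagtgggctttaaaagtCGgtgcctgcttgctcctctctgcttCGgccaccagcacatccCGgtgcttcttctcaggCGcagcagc
A match is a description of the letters, and no binding or methylation was measured here.

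The 33000 deposited barcodes gave 25303 nuclei with at least 500 unique molecular identifiers (UMIs, each counted as 1 captured RNA molecule), 1787 to 3681 per library. Nuclei were clustered without the members, and clusters were named from marker genes as cardiomyocyte-like (10529 nuclei), fibroblast-like (4177), endothelial-like (2059) and endocardial-like (1372), with smaller pericyte-like (514), macrophage-like (485), epicardial-like (174) and lymphatic endothelial-like (44) classes, and 5903 nuclei were left unnamed. Levels are given as CPM, the rate of a gene's UMIs among all UMIs summed per class and library, scaled by edgeR's TMM factors. KO P10 library 2 shared 464 barcodes with KO P10 library 1, and these were left out of library 2. The targeted genes were lower in the knockout libraries than in control P10. Esrra, which encodes ERRalpha, was at 9.23 to 24.6 CPM in KO P10 cardiomyocyte-like nuclei, against 73.2 to 108 CPM in control P10. Esrrg, which encodes ERRgamma, was at 692 to 805 CPM in KO P10, against 1319 to 2024 CPM in control P10. In control P6 Esrra was at 94.7 to 131 CPM and Esrrg at 490 to 862 CPM. The KO P10 Esrrg values thus lay within the control P6 range. All control P6 libraries, control P10 library 1 and KO P10 library 1 were high in Xist and low in Y-linked RNA, and the other 4 libraries were the reverse, so this difference moves in part with age.

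Different clusters made up most of the cardiomyocyte-like class in each group. Cluster 6 held 64.1% of its nuclei in KO P10, cluster 11 held 76.7% in control P10 and cluster 10 held 83.2% in control P6, and cluster 7 came almost wholly from KO P10 library 1. The main cluster of the fibroblast-like class was shared, with 91.0% of its nuclei in KO P10, 93.1% in control P10 and 84.1% in control P6.

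RNA of other cells was present in every class, and its amount moved with the groups. The 11 cardiomyocyte markers, all detected, summed to 37648 to 58786 CPM in KO P10 endothelial-like nuclei, 30366 to 58049 CPM in control P10 and 10093 to 12964 CPM in control P6. The class's own 11 markers summed to 5302 to 10193, 6619 to 9306 and 16006 to 17519 CPM in KO P10, control P10 and control P6. Fibroblast-like nuclei had 17339 to 33713 CPM of cardiomyocyte markers in KO P10, 12024 to 20453 CPM in control P10 and 4940 to 6729 CPM in control P6. In cardiomyocyte-like nuclei fibroblast markers summed to 1550 to 4172 CPM in KO P10, 2180 to 2547 CPM in control P10 and 808 to 905 CPM in control P6. Smooth muscle markers there summed to 393 to 1180, 440 to 766 and 132 to 258 CPM, and macrophage markers to 92.5 to 125, 65.9 to 91.6 and 28.2 to 37.0 CPM, in the same order of groups. The control ages did not overlap for any of these 3 sets. The part of this RNA in the differences below was not tested.

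Signs of RNA quality also moved with the groups. Ribosomal protein genes held 0.486% to 0.867% of the UMIs of KO P10 cardiomyocyte-like nuclei, 0.145% to 0.358% in control P10 and 0.483% to 0.731% in control P6. In fibroblast-like nuclei they held 0.958% to 1.22%, 0.349% to 0.747% and 1.08% to 1.71%, so control P10 was lowest without overlap in both classes. Control P10 was also lowest without overlap in endothelial-like nuclei, whereas in endocardial-like nuclei it overlapped KO P10. Malat1, a nuclear noncoding RNA, averaged 11.3%, 12.2% and 17.5% of the UMIs of cardiomyocyte-like nuclei in KO P10, control P10 and control P6. The part of these shifts in the values of members that were low in control P10 was not tested.

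Counts of members past the test were set against those of all genes. In cardiomyocyte-like nuclei 4 of 8 tested members changed in control P10 relative to control P6 (3 lower, 1 higher), where 17.7% of 11608 genes did, 9.13% lower and 8.61% higher. In KO P10 relative to control P10, 2 of the 8 rose and none fell, where 11.5% of genes changed, 5.94% higher and 5.55% lower. Their median log2 fold change was -0.55 for age and 0.95 for genotype, beside -0.05 and 0.01 over all genes. All adjusted p-values are from edgeR's quasi-likelihood test with Benjamini-Hochberg adjustment over all genes tested, called at 0.05. The 2 comparisons share the control P10 libraries, so a gene low in those libraries appears as falling with age and rising in the knockout.

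In fibroblast-like nuclei 3 of 7 tested members fell with age, where 12.6% of 8143 genes changed, 6.26% lower and 6.3% higher. None of the 7 passed for genotype, where 2.85% of genes changed, although 3 were below an unadjusted p of 0.05 by edgeR and DESeq2 called 1. In endothelial-like nuclei 3 of 6 fell with age, where 28.4% of 6271 genes changed and 13.9% fell. There 1 of 6 rose in KO P10, where 3.35% changed and 2.23% rose. In endocardial-like nuclei 2 of 6 fell with age, where 8.6% of 4184 genes changed and 4.61% fell. For genotype none of these 6 passed by edgeR or DESeq2 and 1 was below an unadjusted p of 0.05, where 1.1% of genes changed. In whole libraries, which sum all barcodes but the shared ones, 4 of 8 fell with age, where 19.9% of 15785 genes changed and 11.3% fell, and 2 of 8 rose in KO P10, where 11.8% changed and 7.01% rose. With so few members, several of these shares are within 1 or 2 genes of the background.

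**Figure D1:**
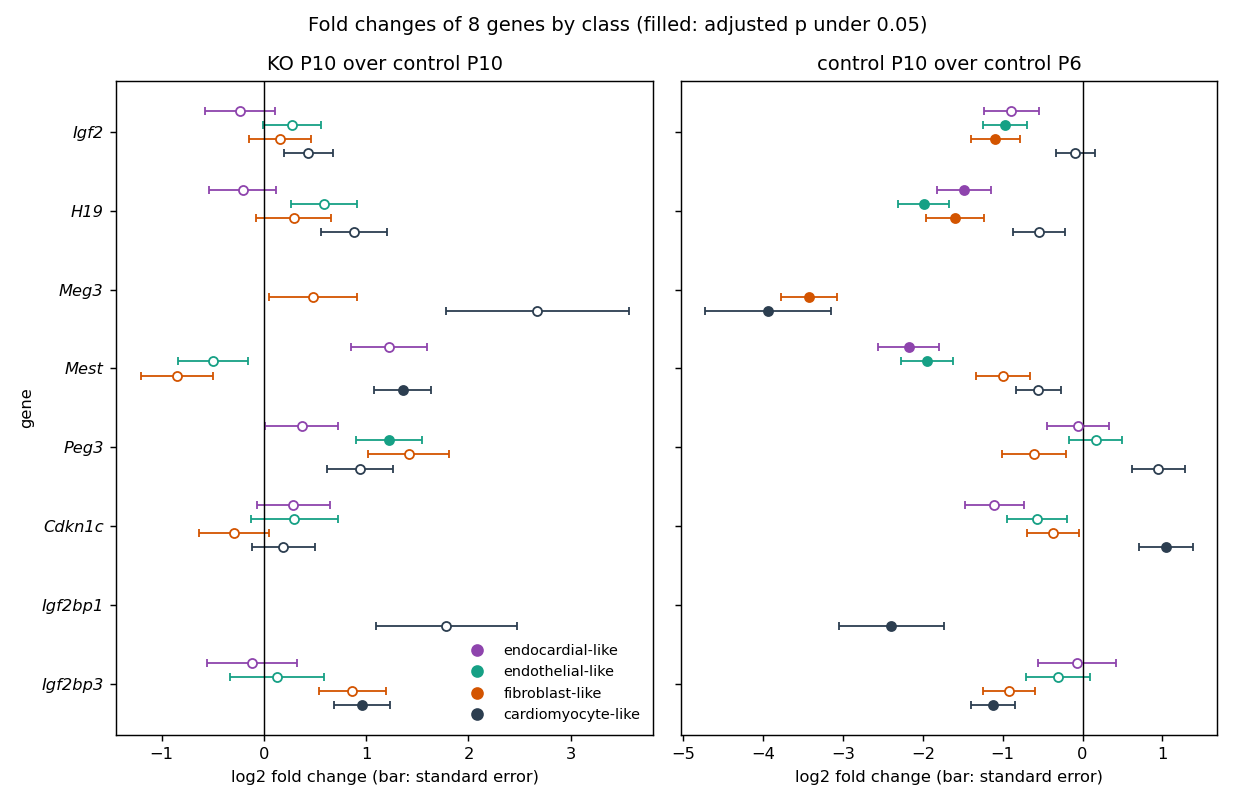
Log2 fold changes of each tested member by class, control P10 over control P6 in one panel and KO P10 over control P10 in the other, with standard errors from the edgeR fit (3 libraries per group). Meg3 lies at -3.94 and -3.43 in the age panel, and Mest lies on opposite sides of 0 in cardiomyocyte-like and fibroblast-like nuclei in the genotype panel.

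Igf2 and H19, the growth factor and its noncoding neighbour, were higher in endocardial-like nuclei, the lining of the heart chambers, than in the 3 other tested classes in 9 of 9 libraries. Igf2 was at 3470, 3657 and 4360 CPM in the KO P10 libraries, 2277, 6864 and 4325 CPM in control P10, and 8331, 7876 and 8854 CPM in control P6. Every control P6 library was above every P10 library, and the KO P10 values lay within the control P10 range. The fold change of control P10 over control P6 was -0.89 ± 0.35 (SE, log2), with an adjusted p of 0.107 that missed the threshold. Without control P10 library 2, the highest of its group, it was -1.33 with an adjusted p of 0.0136.

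H19 was at 3579, 2810 and 2285 CPM in KO P10 endocardial-like nuclei, 2355, 4663 and 2997 CPM in control P10, and 6785, 9797 and 11491 CPM in control P6. The 2 ages did not overlap, and KO P10 overlapped control P10. H19 fell with age by 1.48 ± 0.34 (SE, log2), with an adjusted p of 0.0109. The 7 endocardial markers of this class summed to 7925 to 8495 CPM in control P10 and 7278 to 8073 CPM in control P6, but single markers went different ways. Plvap averaged 319 CPM in control P10 and 883 CPM in control P6, and Nfatc1 52.6 and 115 CPM, whereas Hmcn1 averaged 4535 and 4059 CPM and Tmem108 1955 and 1137 CPM. Cardiomyocyte markers in the class were higher at P10, at 26370 to 30515 CPM in KO P10, 13081 to 29439 CPM in control P10 and 6559 to 8154 CPM in control P6. The call was lost in 4 of the 9 fits that left out 1 library (control P6 libraries 2 and 3, control P10 libraries 1 and 3), with adjusted p-values up to 0.0790.

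**Figure D2:**
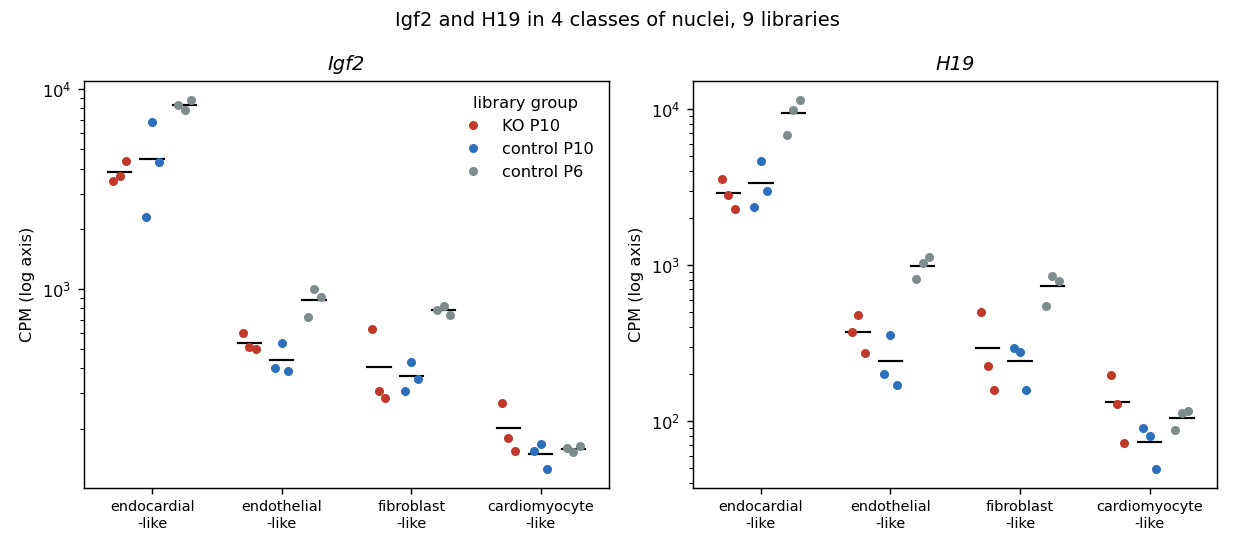
Levels of Igf2 and H19 (CPM, log axis) in each library by class and group, with 3 points per group. Endocardial-like nuclei stand above the other 3 classes in 9 of 9 libraries for both genes.

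The 3 other tested classes held a small share of the endocardial level. Over the 9 libraries Igf2 averaged 5557 CPM in endocardial-like, 619 CPM in endothelial-like, 519 CPM in fibroblast-like and 170 CPM in cardiomyocyte-like nuclei. Endothelial-like and fibroblast-like libraries overlapped in every group, whereas cardiomyocyte-like libraries were below both. H19 averaged 5196 CPM in endocardial-like, 535 CPM in endothelial-like, 422 CPM in fibroblast-like and 104 CPM in cardiomyocyte-like nuclei. The cardiomyocyte-like mean was thus 3.06% of the endocardial-like mean for Igf2 and 2.00% for H19. By group the Igf2 share was 5.26% in KO P10, 3.33% in control P10 and 1.90% in control P6, and the H19 share 4.59%, 2.20% and 1.13%. The same share for the 7 endocardial markers ran from 1.22% (Cytl1) and 1.33% (Plvap) through 2.16% (Npr3), 2.77% (Adgrg6) and 4.23% (Tmem108) to 16.3% for both Nfatc1 and Hmcn1. Among the small classes, lymphatic endothelial-like nuclei held 11, 8 and 16 Igf2 UMIs and 15, 9 and 36 H19 UMIs in KO P10, control P10 and control P6. In control P6 that came to 4621 CPM for H19 (here without TMM scaling, exact Poisson 95% interval 3236 to 6397) and 2054 for Igf2 (1174 to 3335), from 8 nuclei.

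Macrophage-like nuclei, chosen after values were seen as a class outside the main known sources of Igf2 and H19, served as the background for shares of nuclei. After thinning each nucleus to 500 UMIs, 9.83% of KO P10, 7.72% of control P10 and 7.59% of control P6 cardiomyocyte-like nuclei had an Igf2 UMI. The macrophage-like shares were 15.3%, 15.98% and 17.5% in the same order, and the endocardial-like shares were 65.7%, 74.1% and 84.5%. Unthinned, the cardiomyocyte-like shares were 19.3%, 14.6% and 14.8% and the macrophage-like shares 26.4%, 23.0% and 19.6%, at median depths of 973, 1017 and 911.5 UMIs against 710, 862.5 and 672. The H19 share in cardiomyocyte-like nuclei (5.92%, 3.09% and 5.26%) was likewise below the macrophage-like one (9.03%, 5.74% and 6.19%). Igf2 and H19 counts in cardiomyocyte-like nuclei are therefore not shown to exceed background. Whether macrophage-like nuclei make some of this RNA themselves was not tested. The Igf2 share of fibroblast-like nuclei (15.7%, 14.8% and 23.4%) was close to the macrophage-like share in both P10 groups and above it in control P6.

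**Figure D3:**
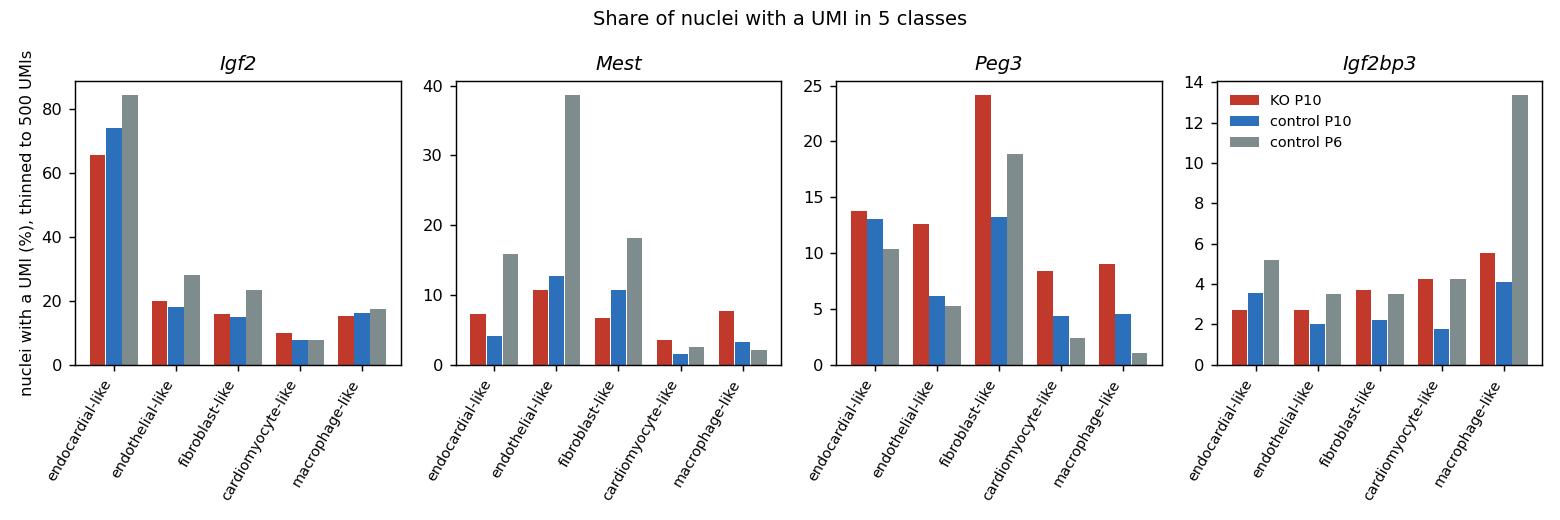
Share of nuclei with at least 1 UMI of a member (%), after thinning each nucleus to 500 UMIs, by class and group. For Igf2 the endocardial-like class reaches 65.7% to 84.5%, while cardiomyocyte-like nuclei (7.59% to 9.83%) lie below macrophage-like nuclei (15.3% to 17.5%).

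In fibroblast-like nuclei Igf2 was at 632, 309 and 284 CPM in KO P10, 308, 432 and 355 CPM in control P10, and 781, 825 and 743 CPM in control P6. The control ages did not overlap and KO P10 spanned the control P10 values. Igf2 fell with age by 1.09 ± 0.30 (SE, log2), with an adjusted p of 0.0234. H19 was at 497, 225 and 159 CPM in KO P10, 292, 278 and 159 CPM in control P10, and 550, 847 and 793 CPM in control P6, and fell with age by 1.60 ± 0.36 (adjusted p 0.00767). Both calls were lost with the Xist or Y-linked kind of each library as a covariate, where Igf2 stood at -0.75 (adjusted p 0.230) and H19 at -0.95 (adjusted p 0.140). Without single libraries, the Igf2 call was lost for control P6 libraries 2 and 3 and control P10 libraries 1 and 3 (adjusted p up to 0.104), and the H19 call for control P10 library 3 (adjusted p 0.0636). The genotype fold changes were 0.16 ± 0.30 for Igf2 and 0.29 ± 0.36 for H19, neither past the test.

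Endothelial-like nuclei had Igf2 at 605, 512 and 499 CPM in KO P10, 402, 537 and 387 CPM in control P10, and 720, 994 and 913 CPM in control P6. The ages did not overlap, and Igf2 fell with age by 0.97 ± 0.27 (SE, log2, adjusted p 0.00971). H19 fell by 1.99 ± 0.32 (adjusted p 4.9e-05), at 373, 480 and 272 CPM in KO P10, 201, 354 and 170 CPM in control P10, and 809, 1031 and 1123 CPM in control P6. When nuclei were classed by their own marker UMIs in place of their cluster, Igf2 was at -0.68 (adjusted p 0.206) and H19 at -1.29 (adjusted p 0.103), so neither passed. The Igf2 call was also lost without control P6 library 2 or control P10 library 3. Library kind as a covariate and a fit with no filter on low counts each lost the Igf2 call as well. The fall of this class's own markers and the rise of cardiomyocyte markers with age, given above, moved in the same libraries.

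The number of H19 UMIs per Igf2 UMI averaged 0.775 ± 0.254 in KO P10, 0.802 ± 0.201 in control P10 and 1.12 ± 0.265 in control P6 endocardial-like nuclei (SD, n = 3 each). In cardiomyocyte-like nuclei it was 0.638 ± 0.148, 0.485 ± 0.0956 and 0.664 ± 0.102 in the same order. In endothelial-like nuclei control P10 libraries lay between 0.440 and 0.660 and control P6 libraries between 1.04 and 1.23, without overlap.

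Meg3, the maternally expressed noncoding RNA, was found mainly in fibroblast-like nuclei and fell steeply between the ages. It was at 43.3, 15.3 and 32.4 CPM in KO P10 fibroblast-like nuclei, 15.4, 31.6 and 15.3 CPM in control P10, and 300, 239 and 208 CPM in control P6. All control P6 libraries were far above all P10 libraries, and the P10 genotypes overlapped. Meg3 fell with age by 3.43 ± 0.35 (SE, log2), with an adjusted p of 4.6e-05. It remained past the threshold in each of 20 alternative fits, between -3.98 and -3.18. The genotype fold change was 0.48 ± 0.43 (adjusted p 0.695).

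The counts behind this were 34 Meg3 UMIs in KO P10, 30 in control P10 and 230 in control P6 fibroblast-like nuclei. After thinning, 1.60%, 0.881% and 9.90% of these nuclei had a Meg3 UMI in that order, while macrophage-like nuclei held 1, 0 and 2 Meg3 UMIs before thinning. In pericyte-like nuclei 1, 1 and 19 UMIs were counted in KO P10, control P10 and control P6, and in epicardial-like nuclei 1, 3 and 12. In epicardial-like nuclei the control P6 level was 109 CPM, here without TMM scaling (exact Poisson 95% interval 56.5 to 191), against 46.3 (9.54 to 135) in control P10, so those intervals overlap. The pericyte-like intervals, 73.5 to 191 CPM in control P6 and 0.101 to 22.1 in control P10, do not overlap. Such intervals cover counting error only.

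In cardiomyocyte-like nuclei Meg3 was sparse, with 8, 8 and 5 UMIs in the KO P10 libraries, 3, 0 and 0 in control P10, and 8, 18 and 23 in control P6. In CPM the control P6 libraries were above every control P10 library, and KO P10 lay between. Meg3 fell with age in the fit (log2 -3.94 ± 0.79, adjusted p 0.00392). These counts were not shown to exceed the background, since the control P6 mean of 12.5 CPM lies within the macrophage-like interval of 2.91 to 86.8 CPM (without TMM scaling), which rests on 2 UMIs. As a ratio of summed counts, control P10 held 0.0507 of the control P6 level (exact 95% interval 0.0101 to 0.157). KO P10 held 7.77 times the control P10 level (2.32 to 40.7), but the fit gave 2.67 ± 0.90 with an adjusted p of 0.0642, which missed the threshold. That value rests on the 3 UMIs of control P10 library 1. Without that library the fit gave 5.92 with an adjusted p of 0.00778, but control P10 then held 0 Meg3 UMIs. No size of change can be read from a count of 0. In whole libraries Meg3 fell with age by 3.31 ± 0.27 (adjusted p 2.2e-05).

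Rian, the noncoding RNA downstream of Meg3, had 13 UMIs in all libraries together and was not tested. Mirg, the noncoding RNA farther along the same region, fell with age in fibroblast-like nuclei by 1.46 ± 0.32 (SE, log2), with an adjusted p of 0.00657. It averaged 50.7 ± 10.2 CPM in control P10 and 137 ± 21.5 CPM in control P6 (SD, n = 3 each), and its call was lost in 1 of the 9 fits that left out a library (adjusted p 0.0520).

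**Figure D4:**
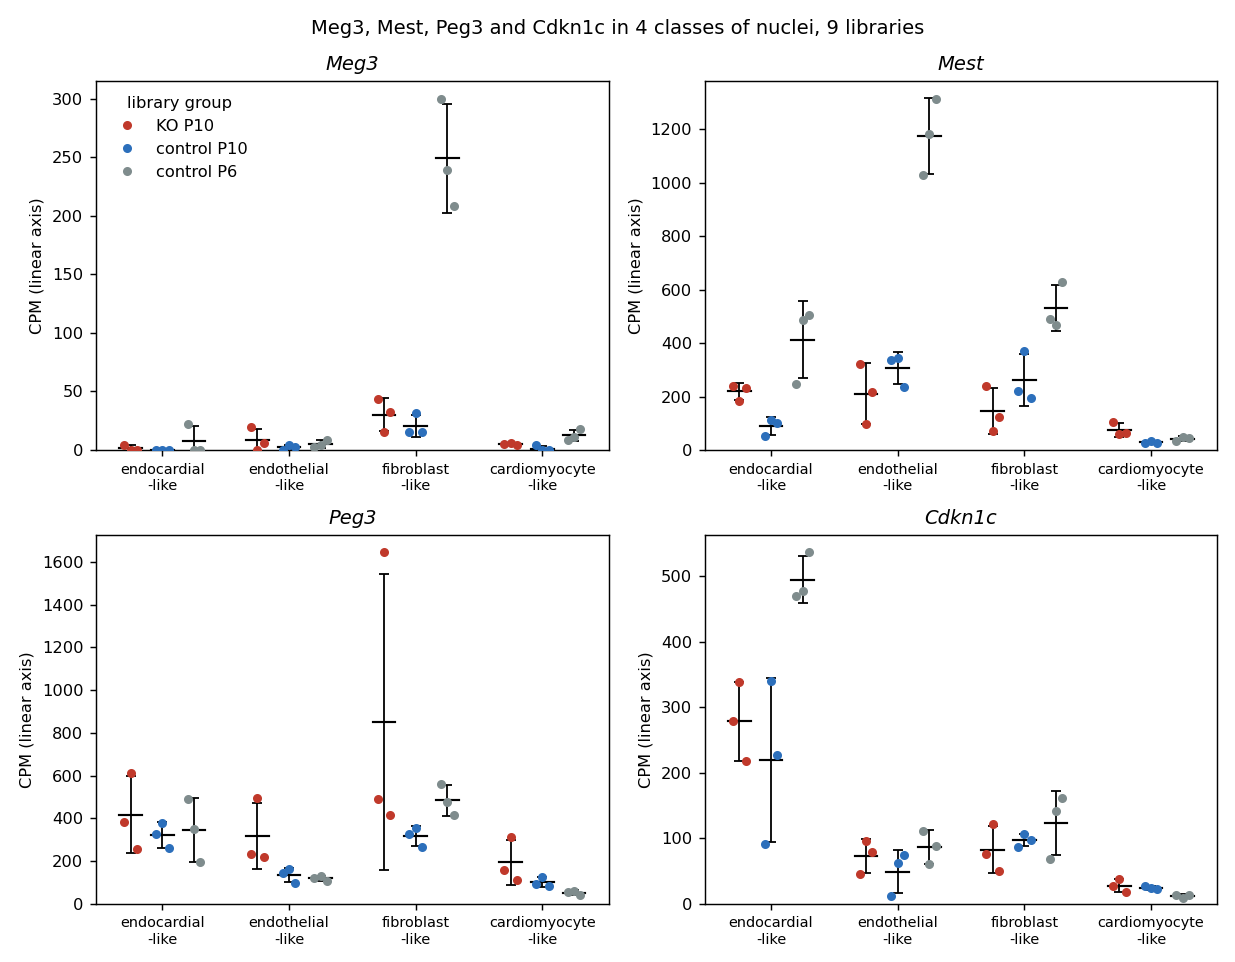
Levels of Meg3, Mest, Peg3 and Cdkn1c (CPM) in each library by class and group, with 3 points per group. Meg3 is at 208 to 300 CPM in control P6 fibroblast-like nuclei and below 44 CPM in every P10 library of that class.

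Mest, the paternally expressed hydrolase-like gene, had its highest mean among the 4 tested classes in endothelial-like nuclei of control P6. It was at 322, 95.9 and 215 CPM in KO P10 endothelial-like nuclei, 335, 345 and 237 CPM in control P10, and 1029, 1181 and 1311 CPM in control P6. Control P6 was above every P10 library, and the P10 genotypes overlapped. Mest fell with age by 1.95 ± 0.32 (SE, log2), with an adjusted p of 7.7e-05, and remained past the threshold in all 20 alternative fits. In the same libraries the class's own markers fell and cardiomyocyte markers rose with age, as given above, and their part was not tested. The thinned share of endothelial-like nuclei with a Mest UMI was 10.7% in KO P10, 12.6% in control P10 and 38.7% in control P6, against 7.64%, 3.28% and 2.06% of macrophage-like nuclei.

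In endocardial-like nuclei Mest was at 240, 184 and 233 CPM in KO P10, 52.0, 113 and 102 CPM in control P10, and 246, 487 and 505 CPM in control P6. Control P10 was below all 6 other libraries. Mest fell with age by 2.18 ± 0.38 (SE, log2), with an adjusted p of 0.00332, on 30 UMIs in control P10. The KO P10 fold change of 1.22 ± 0.38 missed the threshold (adjusted p 0.134). Endocardial-like and endothelial-like KO P10 libraries overlapped, whereas in control P10 the endothelial-like level was higher without overlap.

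Cardiomyocyte-like nuclei had the lowest mean Mest level of the 4 classes, at 104, 59.0 and 62.0 CPM in KO P10, 25.8, 33.8 and 27.6 CPM in control P10, and 32.9, 48.9 and 46.5 CPM in control P6. Each KO P10 library was above each control P10 library. Mest rose in KO P10 by 1.36 ± 0.28 (SE, log2), with an adjusted p of 0.00553. The thinned share of nuclei with a Mest UMI, 3.52% in KO P10 and 1.52% in control P10, did not exceed the macrophage-like 7.64% and 3.28%, which rest on 11 and 8 nuclei. Unthinned, it was 7.22% and 3.33% against 9.72% and 8.61%, so these counts are not shown to be above background, and the part of the background in the Mest difference was not tested. With nuclei classed by their own marker UMIs the fold change was 0.60 (adjusted p 0.152). Erythroid markers in these nuclei, at 2323 to 11379 CPM in KO P10 and 1338 to 2211 CPM in control P10, and macrophage markers, at 92.5 to 125 and 65.9 to 91.6 CPM, were higher in KO P10 without overlap. Smooth muscle markers averaged 878 CPM in KO P10 and 557 CPM in control P10, with overlapping libraries. Fibroblast markers, given above, overlapped too, as did endothelial markers, at 1185 to 1613 CPM in KO P10 and 1346 to 1945 CPM in control P10. Their part in the Mest difference was not tested. Copg2, which overlaps Mest, was at -0.07 ± 0.27 in the same fit (adjusted p 0.902).

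Fibroblast-like nuclei held Mest at 239, 72.4 and 122 CPM in KO P10, 221, 372 and 194 CPM in control P10, and 492, 469 and 628 CPM in control P6. The ages did not overlap, but the fold change of -0.997 ± 0.341 missed the threshold (adjusted p 0.0602). For genotype it was -0.85 ± 0.35 (adjusted p 0.247), and -1.42 with an adjusted p of 0.0287 without KO P10 library 1. In whole libraries Mest fell with age by 0.98 ± 0.26 (adjusted p 0.0186), a call lost without control P6 library 3, control P10 library 1 or control P10 library 3.

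The genotype effect on Mest differed between classes by -2.23 ± 0.28 (fibroblast-like minus cardiomyocyte-like, SE, log2), in a fit with library as a block (adjusted p 4.2e-07), and this remained past the threshold in all 21 alternative fits, between -2.50 and -1.44. Of the 8 members tested 1 differed between the classes for genotype, where 1.8% of 11615 genes did, 0.981% with a negative difference.

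Peg3, the paternally expressed zinc-finger gene, had its highest mean of the 4 tested classes in fibroblast-like nuclei in KO P10 and control P6, level with endocardial-like nuclei in control P10. Epicardial-like nuclei held 740 CPM of Peg3 in KO P10 (here without TMM scaling, exact Poisson 95% interval 492 to 1070), 170 in control P10 (84.7 to 304) and 447 in control P6 (330 to 590). These rest on 28, 11 and 49 UMIs of 46, 67 and 61 nuclei, pooled over libraries. KO P10 library 2 gave 24 of the 46 nuclei and control P10 library 2 gave 46 of the 67. The intervals cover counting error only, not the spread between libraries. For Peg3, KO P10 library 2 stood above all others in each of the 4 tested classes. In fibroblast-like nuclei it was at 492, 1647 and 413 CPM in KO P10, 328, 356 and 266 CPM in control P10, and 560, 479 and 414 CPM in control P6. The P10 genotypes did not overlap, yet the fold change of 1.42 ± 0.40 (SE, log2) missed the threshold with an adjusted p of 0.0625. It was 0.53 (adjusted p 0.492) without KO P10 library 2, and it passed without KO P10 library 1 (1.69, adjusted p 0.0155) or 3 (1.76, adjusted p 0.0318).

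In endothelial-like nuclei Peg3 was at 232, 496 and 221 CPM in KO P10, 145, 163 and 96.7 CPM in control P10, and 120, 130 and 105 CPM in control P6. KO P10 was above all other libraries, and Peg3 rose in KO P10 by 1.22 ± 0.32 (SE, log2, adjusted p 0.0341). The call was lost without control P6 library 2, control P10 library 3 or KO P10 library 2, with the last giving 0.77 (adjusted p 0.229). Macrophage-like nuclei held Peg3 at 207 CPM in KO P10 (exact Poisson interval 139 to 297), here without TMM scaling. In control P10 they held 103 CPM (68.8 to 148). Endothelial-like KO P10 libraries 1 and 3 and the control P10 mean of 135 CPM lay within these intervals. The KO P10 mean of 316 CPM and KO P10 library 2 lay above. The part of this background in the endothelial-like rise was not tested. In whole libraries Peg3 rose by 1.09 ± 0.31 (adjusted p 0.0345), and was at 0.64 (adjusted p 0.0978) without KO P10 library 2. That call was lost in 6 of the 9 fits without 1 library, all but those without control P6 library 1, KO P10 library 1 or KO P10 library 3.

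Cardiomyocyte-like nuclei had Peg3 at 157, 314 and 109 CPM in KO P10, 92.9, 126 and 83.4 CPM in control P10, and 55.6, 60.2 and 41.1 CPM in control P6. Control P10 was above control P6 without overlap, and KO P10 overlapped control P10. Neither fold change passed, at 0.95 ± 0.34 for age (adjusted p 0.0611) and 0.94 ± 0.32 for genotype (adjusted p 0.0714). The thinned shares were 8.34%, 4.37% and 2.42% in KO P10, control P10 and control P6, against 9.03%, 4.51% and 1.03% of macrophage-like nuclei, so the P10 shares did not exceed background, and the control P6 macrophage-like share rests on 1 nucleus. Fibroblast, smooth muscle and macrophage markers in these nuclei, given above, were also higher in control P10 than in control P6 without overlap.

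The age effects of 3 members differed between fibroblast-like and cardiomyocyte-like nuclei, where 2.27% of genes did, 0.956% with a negative difference like these 3. Peg3 differed by -1.40 ± 0.25 (fibroblast-like minus cardiomyocyte-like, SE, log2, adjusted p 0.000202), in all 21 alternative fits. Igf2 differed by -0.82 ± 0.22 (adjusted p 0.0305) and H19 by -0.89 ± 0.23 (adjusted p 0.0242). The Igf2 and H19 calls were each lost in 10 and 8 of 21 alternative fits.

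Cdkn1c, which encodes the p57 inhibitor, was higher in endocardial-like nuclei than in the 3 other tested classes in 9 of 9 libraries. There it was at 279, 338 and 218 CPM in KO P10, 91.1, 340 and 227 CPM in control P10, and 470, 478 and 537 CPM in control P6. The control ages did not overlap, and the fold change of -1.10 ± 0.37 (SE, log2) missed the threshold with an adjusted p of 0.0668. Without control P10 library 2 it was -1.60 (adjusted p 0.0119). Epicardial-like nuclei held 3, 30 and 45 Cdkn1c UMIs in KO P10, control P10 and control P6, or 79.3 (exact Poisson 95% interval 16.4 to 232), 463 (312 to 661) and 410 (299 to 549) CPM, here without TMM scaling. These pool 46, 67 and 61 nuclei, of which control P10 library 2 gave 46 of the 67. The intervals cover counting error only, not the spread between libraries.

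In cardiomyocyte-like nuclei Cdkn1c was far lower, at 26.4, 37.3 and 17.6 CPM in KO P10, 27.1, 23.4 and 22.2 CPM in control P10, and 13.4, 8.78 and 13.2 CPM in control P6. Control P10 was above control P6 without overlap, and Cdkn1c rose with age by 1.04 ± 0.34 (SE, log2, adjusted p 0.0450). That call is close to the threshold and was lost in 5 of the 9 fits that left out a library (control P6 libraries 2 and 3 and each control P10 library) and by DESeq2 (adjusted p 0.060). It was also lost with the replicate block (0.0521), with library kind as a covariate (0.0784), at 800 UMIs per nucleus (0.168) and with candidate doublets kept (0.0531), all adjusted p-values. Fibroblast and smooth muscle markers in these nuclei were higher in control P10 than in control P6 as well, and their part was not tested. The thinned shares of 1.06% in control P10 and 0.604% in control P6 stood beside macrophage-like shares of 1.64% and 2.06%, which rest on 4 of 244 and 2 of 97 nuclei. The macrophage-like levels of 31.9 (exact Poisson 95% interval 14.6 to 60.5) and 36.1 (7.43 to 105) CPM, without TMM scaling, have intervals that hold 24.2 and 11.8 CPM, the cardiomyocyte-like means of control P10 and control P6, so the counts are not shown to differ from background. For fibroblast-like nuclei the Cdkn1c fold change was -0.38 ± 0.33 for age and -0.29 ± 0.34 for genotype, neither past the test.

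Igf2bp3, a fetal RNA-binding protein gene, was found in all 4 tested classes. Class means lay between 56.4 and 84.1 CPM in KO P10 and between 60.5 and 93.6 CPM in control P6. In control P10 the endocardial-like mean was 91.9 CPM on 29 UMIs, against 52.9 CPM in endothelial-like, 44.5 CPM in fibroblast-like and 43.3 CPM in cardiomyocyte-like nuclei, and it was the highest of the 4 in 3 of 3 libraries. In cardiomyocyte-like nuclei it was at 89.2, 91.8 and 71.2 CPM in KO P10, 43.9, 52.3 and 33.6 CPM in control P10, and 67.9, 129 and 83.7 CPM in control P6. Control P10 was below both other groups without overlap, as was its share of ribosomal protein genes in the same nuclei (0.145% to 0.358%, given above). Igf2bp3 fell with age by 1.12 ± 0.27 (SE, log2, adjusted p 0.0113) and rose in KO P10 by 0.96 ± 0.27 (adjusted p 0.0323). The age call was lost without control P6 library 2 (-0.81, adjusted p 0.0849) or control P10 library 3, and the KO P10 call without any 1 of 5 P10 libraries, all but control P10 library 2 (adjusted p up to 0.192).

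The thinned share of cardiomyocyte-like nuclei with an Igf2bp3 UMI was 4.25%, 1.78% and 4.23% in KO P10, control P10 and control P6. Macrophage-like nuclei stood at 5.56%, 4.10% and 13.4%, the last from 97 nuclei. Their control P6 level of 300.4 CPM without TMM scaling (25 UMIs, exact Poisson 95% interval 194 to 444) lay above the means of the 4 tested classes, so this class gives no background level for Igf2bp3. In fibroblast-like nuclei the Igf2bp3 fold changes were -0.92 ± 0.33 for age (adjusted p 0.0691) and 0.86 ± 0.33 for genotype (adjusted p 0.191). In whole libraries Igf2bp3 fell with age by 0.86 ± 0.23 (adjusted p 0.0193) and rose in KO P10 by 0.82 ± 0.23 (adjusted p 0.0349). When single libraries were left out, the first call was lost in 4 of 9 fits (control P6 libraries 2 and 3, control P10 libraries 1 and 3) and the second in 6 (control P6 library 3, control P10 libraries 1 and 3 and each KO P10 library).

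Igf2bp1, its paralogue, was sparse. Cardiomyocyte-like nuclei held 17, 5 and 5 Igf2bp1 UMIs in the KO P10 libraries, 0, 5 and 3 in control P10, and 5, 24 and 11 in control P6. In CPM, control P6 was above control P10 without overlap, and Igf2bp1 fell with age by 2.39 ± 0.65 (SE, log2, adjusted p 0.0199). The call was lost in 4 of the 9 fits that left out a library (control P6 libraries 2 and 3, control P10 libraries 1 and 3). It was also lost with library kind as a covariate. The KO P10 fold change of 1.78 ± 0.69 missed the threshold (adjusted p 0.106). In whole libraries Igf2bp1 averaged 7.34 ± 3.98 CPM in KO P10, 3.10 ± 0.630 CPM in control P10 and 10.8 ± 3.70 CPM in control P6 (SD, n = 3 each), and it fell with age by 1.78 ± 0.42 (adjusted p 0.0101), a call lost without control P6 library 2 (-1.50, adjusted p 0.0638). Macrophage-like nuclei held 1, 0 and 0 Igf2bp1 UMIs in KO P10, control P10 and control P6. The control P6 count of 0 allows up to 36.1 CPM without TMM scaling (3 counts), above the cardiomyocyte-like mean of 9.58 CPM, so the cardiomyocyte-like counts are not shown to exceed background.

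**Figure D5:**
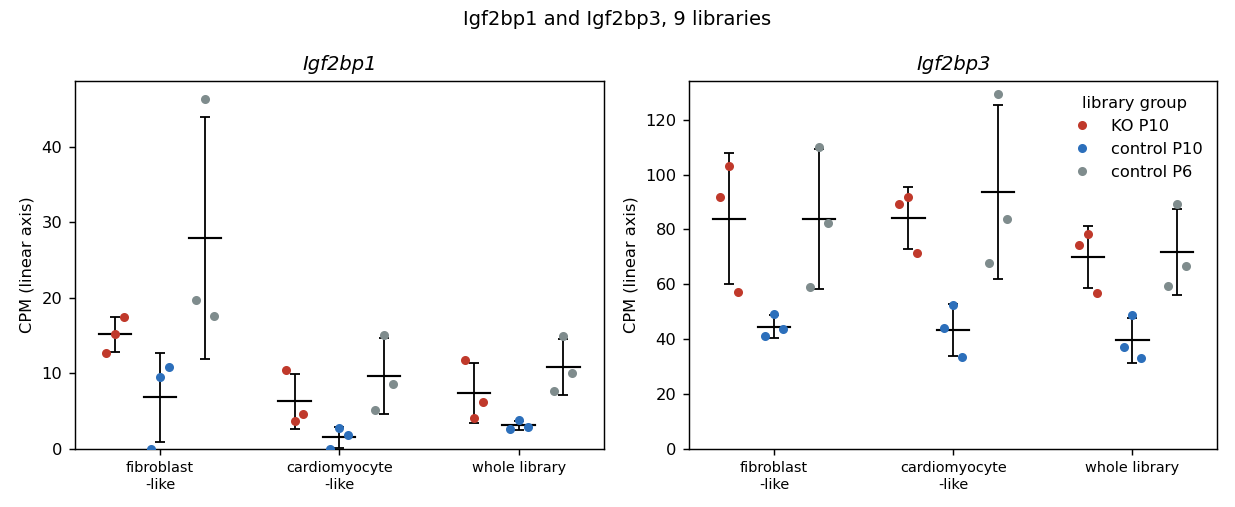
Levels of Igf2bp1 and Igf2bp3 (CPM) in each library by class and group, with 3 points per group. For Igf2bp3 the control P10 cardiomyocyte-like libraries (33.6 to 52.3 CPM) lie below the KO P10 libraries (71.2 to 91.8 CPM) and the control P6 libraries (67.9 to 129 CPM).

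Other imprinted genes were read from a list of 55. In cardiomyocyte-like nuclei 6 of 30 tested changed with age, 4 higher and 2 lower, near the 17.7% of all genes. Kcnq1, a potassium channel gene of the Cdkn1c region, rose by 1.27 ± 0.26 (SE, log2, adjusted p 0.00463), and the noncoding Kcnq1ot1 that overlaps it on the other strand by 0.88 ± 0.25 (adjusted p 0.0225). Trappc9 rose by 1.19 and Asb4 by 0.93, whereas Mcts2 fell by 1.49 and Tssc4 by 1.38. For genotype 8 of 30 changed, 5 higher and 3 lower, beside 11.5% of all genes. Gnas, which encodes a stimulatory G protein subunit, rose in KO P10 by 2.18 ± 0.33 (adjusted p 0.000922), at 2603 ± 1113 CPM in KO P10 and 573 ± 107 CPM in control P10 (SD, n = 3 each). Its antisense partner Nespas rose by 2.70, and reads of that pair cannot be told apart.

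Ddc, which encodes an enzyme of catecholamine and serotonin synthesis, fell in KO P10 by 2.00 ± 0.38 (adjusted p 0.00392), and Kcnq1 by 1.23 ± 0.26 (adjusted p 0.00758). Zim1 rose by 1.72 and Tssc4 by 1.36. In fibroblast-like nuclei 3 of 25 of these genes changed with age, near the 12.6% of all genes. Mirg fell as given above, Tssc4 fell by 1.31 and Trappc9 rose by 1.19. None of the 25 passed for genotype by edgeR, where 2.85% of all genes changed. By edgeR 4 of the 25 were below an unadjusted p of 0.05, and DESeq2 called 2. The Tssc4 call in fibroblast-like nuclei and the Mcts2 and Tssc4 calls with age in cardiomyocyte-like nuclei were each lost in 4 of 9 fits without 1 library, and the Asb4 call in 5. For genotype the Zim1 call was lost in 7 and the Tssc4 call in 5. Mcts2 lies inside H13 and Trappc9 overlaps Peg13, each on the same strand, so their counts are uncertain even if counting used strand. The counts of Kcnq1 and Kcnq1ot1, on opposite strands, are uncertain because the use of strand is not given.

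Genes of the insulin-like growth factor pathway were read from a list of 16. In cardiomyocyte-like nuclei 4 of 11 tested rose with age and none fell, where 8.61% of 11608 genes rose and 9.13% fell. Irs1, a docking protein of the insulin receptors, rose by 1.34 ± 0.32. The binding proteins Igfbp4, Igfbp7 and Igfbp5 rose by 1.16 ± 0.33, 1.16 ± 0.23 and 1.05 ± 0.30 (SE, log2, adjusted p 0.00388 to 0.0269 for the 4). Markers of other cells in the same nuclei were higher too. Fibroblast markers stood at 2180 to 2547 CPM in control P10 and 808 to 905 CPM in control P6, smooth muscle markers at 440 to 766 and 132 to 258 CPM, and endothelial markers at 1346 to 1945 and 812 to 1103 CPM, and their part was not tested. For genotype 3 of 11 rose and 1 fell, where 5.94% of all genes rose and 5.55% fell. Pappa rose by 1.45, Igfbp7 by 1.33 and Igf1r, the receptor through which Igf2 signals, by 1.08 ± 0.26. Igf1 fell by 1.23 ± 0.28 (adjusted p 0.0102). When single libraries were left out, the Igfbp4, Igfbp5 and Irs1 calls were lost in 5, 4 and 2 of 9 fits, and the Pappa, Igf1r and Igf1 calls in 4, 2 and 1. The Igf2 receptor Igf2r, which clears Igf2, did not pass, at -0.35 ± 0.25 for age and 0.05 ± 0.25 for genotype. In fibroblast-like nuclei none of 12 passed by edgeR, where 12.6% of all genes changed with age and 2.85% with genotype. Below an unadjusted p of 0.05 by edgeR were 2 for age and 5 for genotype, and DESeq2 called 0 and 1.

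Of 14 other fetal RNA-binding protein genes and let-7 targets, none of the 8 tested in cardiomyocyte-like nuclei and none of the 5 tested in fibroblast-like nuclei passed in either comparison by edgeR or DESeq2. Over all genes 17.7% (age) and 11.5% (genotype) changed in cardiomyocyte-like nuclei, and 12.6% and 2.85% in fibroblast-like nuclei. Below an unadjusted p of 0.05 by edgeR were 1 of 8 for age and 3 of 8 for genotype in cardiomyocyte-like nuclei, and 1 of 5 and 0 of 5 in fibroblast-like nuclei. Igf2bp2, the paralogue of Igf2bp1 and Igf2bp3, was at -0.05 ± 0.26 for age and 0.56 ± 0.25 for genotype in cardiomyocyte-like nuclei. Lin28b, which blocks let-7 maturation, was at -0.30 ± 0.30 and -0.93 ± 0.32 (adjusted p 0.0687).

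Across the 36 sums of 4 classes in 9 libraries, and among 8629 genes, the gene most like Igf2 in log2 CPM was H19, with a Pearson r of 0.98. Ece1 and Igfbp5 followed at 0.94. Sipa1 was most like Mest at 0.91, Lox most like Peg3 at 0.88 and Ece1 most like Cdkn1c at 0.91, whereas the nearest genes to Meg3 (Olfml1, 0.68) and Igf2bp3 (Grb10, 0.70) were less alike. The sums share libraries and classes, so these coefficients describe the pattern and carry no test.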

How the data were processed

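Droplet single-nucleus RNA libraries (Drop-seq, on poly(A)-priming beads, per the labels' protocols) gave 1 gene-by-barcode table each of deposited UMI counts, which the authors did not normalize. The submitters' processing notes name STAR 2.5.2a and the mm10 build; whether counting used strand is not given in the sources used here. Library totals were 2608067 to 5769630 UMIs. Barcodes with at least 500 UMIs outside mitochondrial genes were kept (5897 were below), the 5% with the highest scrublet doublet score were dropped (1336), and nuclei were grouped with scanpy 1.11.5 (2000 variable genes, 30 principal components, 15 neighbours, Leiden resolution 1, members left out). Class names rest on rebuilt clusters.

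Counts were summed per class and library and tested with edgeR 4.0.16 in R 4.3.3 (TMM scaling, filterByExpr, quasi-likelihood test over all 9 libraries, Benjamini-Hochberg adjustment over all genes tested, called at 0.05). The whole-library fit sums all barcodes except those shared. The difference between classes was tested as an interaction with library as a block. Alternatives included DESeq2 1.42.0. The fit was tested on simulated counts. Intervals are exact at 95% and cover counting error only. The labels do not say how many hearts a library holds, so p-values measure the spread between these libraries, which may be partly technical.

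The members and lists were chosen with earlier results of these data known. From each other list the called genes of largest change, up to 6 per comparison, were named, and up to 3 genes most like each member by Pearson correlation of log2 CPM among genes averaging at least 20 CPM. Genes named beyond these (Igf2r, Igf2bp2, Lin28b, Copg2) and the macrophage-like comparison were chosen after values were seen.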

Additional observations from a re-analysis of the deposited data

Results flagged for a closer look

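Each of the results here was singled out because an effect differed between fibroblast-like and cardiomyocyte-like nuclei in a test of the difference itself, by edgeR's quasi-likelihood test with library as a block. Mest rose in KO P10 relative to control P10 in cardiomyocyte-like nuclei (1.36, log2) and was at -0.85, not past the test, in fibroblast-like nuclei, a difference of -2.23 (adjusted p 4.2e-07). Peg3 stood at 0.95 with age in cardiomyocyte-like nuclei and -0.61 in fibroblast-like nuclei, neither past the test, and the difference was -1.40 (adjusted p 0.000202). The age effect on Igf2 differed by -0.82 (adjusted p 0.0305) and that on H19 by -0.89 (adjusted p 0.0242). In cardiomyocyte-like nuclei the shares of nuclei with Igf2 or H19 UMIs, with Mest UMIs at P10 and with Peg3 UMIs at P10 were at or below those of macrophage-like nuclei, and the part of this background in the differences was not tested.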

How the results depend on the processing

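Of 25 calls on members, 7 held in every alternative in which the gene was tested. They were the fall of Meg3 with age in cardiomyocyte-like nuclei, fibroblast-like nuclei and whole libraries, and that of Mest in endothelial-like and endocardial-like nuclei. The others were the differences between classes of Peg3 (age) and Mest (genotype). Meg3 in cardiomyocyte-like nuclei was tested in 20 alternatives, where Igf2bp3 was in 21. Mest in endocardial-like nuclei was tested in 19, where H19 was in 20. The Meg3 counts in cardiomyocyte-like nuclei were not shown to exceed background. Of 61 values not called, 46 stayed so throughout.

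For age, 4 members were called in cardiomyocyte-like nuclei, against 2 with library kind (Xist or Y-linked) as covariate, 2 at 800 UMIs per nucleus, 2 without clusters 7 and 12, and 1 to 5 when leaving out single libraries. Fibroblast-like nuclei had 3, against 1 with kind, 1 with classes from own marker UMIs and 1 to 4 leaving out libraries. Endothelial-like nuclei had 3, against 1 with own marker UMIs and 2 to 3. Endocardial-like nuclei had 2, against 4 with kind, 1 with own marker UMIs and 1 to 4. Whole libraries had 4, against 1 with kind (Meg3) and 2 to 4. The difference between classes had 3, against 1 with no filter, 1 with kind, 1 without clusters 7 and 12, and 1 to 4.

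For genotype, cardiomyocyte-like nuclei had 2, against 5 with no filter, 1 at 800 UMIs, 1 without clusters 7 and 12, and 1 to 3 leaving out libraries. Fibroblast-like nuclei had 0, against 1 with DESeq2, 1 with no filter, 1 with doublets kept, and 0 to 2. Endothelial-like nuclei had 1, against 0 at 800 UMIs, 0 with own marker UMIs, and 0 to 1. Endocardial-like nuclei had 0 throughout by edgeR. Whole libraries had 2, against 0 with the 6 libraries of the comparison alone and 0 to 2. The difference between classes had 1, against 2 without clusters 7 and 12 and 1 to 2. The cause of these changes was not tested. Leaving out clusters 7 and 12 was chosen after seeing the data.

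The replicate block gave 4 (age; Cdkn1c lost, Peg3 gained) and 3 (genotype) members in cardiomyocyte-like nuclei, 3 and 0 in fibroblast-like, 3 and 1 in endothelial-like, 4 and 0 in endocardial-like nuclei, and 4 and 2 in whole libraries. Same-numbered libraries correlated between -0.52 and 0.50 in their deviations. The labels do not say whether the numbers pair libraries, and correlations this mixed cannot decide it.

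Some values that were not called changed sign. Leaving out single libraries, the age values ranged from -0.17 to 0.060 for Igf2 in cardiomyocyte-like, -0.12 to 0.38 for Peg3 and -0.66 to 0.027 for Igf2bp3 in endothelial-like, and -0.31 to 0.22 for Peg3 and -0.28 to 0.31 for Igf2bp3 in endocardial-like nuclei, and -0.56 to 3.50 for the Meg3 difference between classes. The genotype values ranged from -0.11 to 0.39 for Cdkn1c in cardiomyocyte-like, -0.31 to 0.37 for Igf2 and -0.34 to 0.60 for H19 in fibroblast-like, and -0.43 to 0.48 for Igf2bp3 in endothelial-like nuclei. In endocardial-like nuclei they ranged from -0.54 to 0.19 for Igf2, -0.40 to 0.087 for H19, -0.040 to 0.61 for Peg3, -0.034 to 0.77 for Cdkn1c and -0.40 to 0.13 for Igf2bp3, and for the Igf2bp3 difference between classes from -0.24 to 0.0841. With no filter Igf2 (cardiomyocyte-like, age) was 0.033, and in endocardial-like nuclei with age Peg3 was 0.20 and Igf2bp3 0.19. With kind, the age values were 0.19 for Igf2 (cardiomyocyte-like), -0.077 for Peg3 (endothelial-like), 0.34 for Igf2bp3 (endocardial-like), 0.00104 for Igf2 (whole libraries) and -0.91 for the Igf2bp1 difference. With own marker UMIs they were 0.37 for Igf2 (cardiomyocyte-like, age), 0.029 for Igf2 (endocardial-like, genotype), -0.16 for the Meg3 difference (age) and 0.052 for the H19 difference (genotype). At 800 UMIs Peg3 (endothelial-like, age) was -0.00288, Igf2bp3 (endothelial-like, genotype) -0.11 and its difference (genotype) 0.28, and with doublets kept Peg3 (endocardial-like, age) was 0.031.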
